A study of Arabidopsis thaliana with 18 samples.

Results

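The transcript effect of losing phytochrome B in plants that also lack JAZ10 was read 3 h after a spray with methyl jasmonate (MeJA), the methyl ester of jasmonate, which plants use as a signal of wounding and attack. The arrays were chosen by their titles, which gave 2 arrays of jaz10phyb MeJA and 2 of jaz10 MeJA, 4 of the 18 arrays in all. RNA of whole Arabidopsis thaliana plants had been hybridised, in one colour, to the Affymetrix Arabidopsis Gene 1.0 ST array, on which a probe set joins several short probes into 1 signal. The full design crossed wild-type Col-0, the single mutants phyB-9 and jaz10, and the double mutant jaz10phyB-9 with MeJA or mock spray.

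Both groups of the main comparison carried the jaz10 mutation and both received 250 µM MeJA, so they differed in the phyB-9 allele alone, as labelled. The mock-sprayed groups jaz10 Control and jaz10phyb Control, with 2 arrays each, gave the same genotype difference without the hormone. The Col groups (wild type, 2 arrays a treatment) and the phyb groups (phyB-9 with JAZ10 intact, 3 arrays a treatment) gave the comparison with JAZ10 present. All plants were 4 weeks old, were grown at 22 °C with 8 h of light a day, and were pooled, at least 4 to a sample. The labels name no jaz10 allele and do not say that pools were grown separately. The p-values therefore cover the spread between the pools measured here. Some stocks of phyB-9 are known to carry a further mutation in VENOSA4, and the labels do not say whether this one does.

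Phytochrome B is the main receptor by which light-grown plants sense the ratio of red to far-red light. In full light it restrains the PIF transcription factors, and plants without it grow as if shaded, with long petioles, raised auxin response genes and weaker jasmonate defence. JAZ proteins bind and repress MYC and other transcription factors until jasmonate triggers their destruction, and JAZ10 is one of those known for damping the response and for the reduced jasmonate sensitivity of shaded plants.

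Of 38408 probe sets, 16722 were paired with 1 gene, and 5689 genes had a named probe set with a signal of at least 50 on some array. Levels are given as log2(signal + 1), on which that signal minimum is 5.67, and differences are jaz10phyb minus jaz10 on this scale, with the standard error of a limma fit (SE, n = 2 arrays per group). PHYB and JAZ10 had no probe set of their own and were not analysed here, which leaves the genotype labels unchecked by the mutant genes. Treatment labels were checked with a MeJA score, in which the mean over genes lowered by MeJA in Col was subtracted from the mean over genes raised. Scores were centred on their mean over the 18 arrays, and the sign was read as the treatment side. The score was 1.51 and 1.54 on the jaz10 MeJA arrays, 1.23 and 1.23 on the jaz10phyb MeJA arrays, and between -1.45 and -0.945 on the 4 mock arrays of these genotypes, so all 8 lay on the side of their label. The arrays labelled phyb Control 2 and phyb MeJA 3 went against their labels on this score (1.15 and -1.39), and every result that uses phyb arrays is given with and without both. Of 11 green-leaf markers, RCA, the activase of Rubisco, was the one tested, with signals of 3067 to 3187 in jaz10 MeJA and 2827 to 2872 in jaz10phyb MeJA. None of the root, flower and seed markers was among the genes tested.

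After MeJA, 61 of 5689 genes differed between jaz10phyb and jaz10 at an adjusted p under 0.05 (limma, Benjamini-Hochberg, 1.07% of genes), with 28 higher (0.492%) and 33 lower (0.58%) in the double mutant. Before adjustment 753 genes had a p under 0.05. Genes of light and shade response, anthocyanin synthesis, cold and dehydration, and jasmonate defence and breakdown were among those called. The sizes of the 61 differences ran upward from 0.50 with a median of 0.85, and 12 rises and 11 falls reached a doubling or halving. In all 61 the arrays of the groups did not overlap, a pattern also found in 16.3% of all genes toward higher and 28.3% toward lower values. In 10 of them both group means lay below the signal minimum, and in 29 at least one did. With quantile normalization the split was 37 higher and 29 lower.

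**Figure D1:**
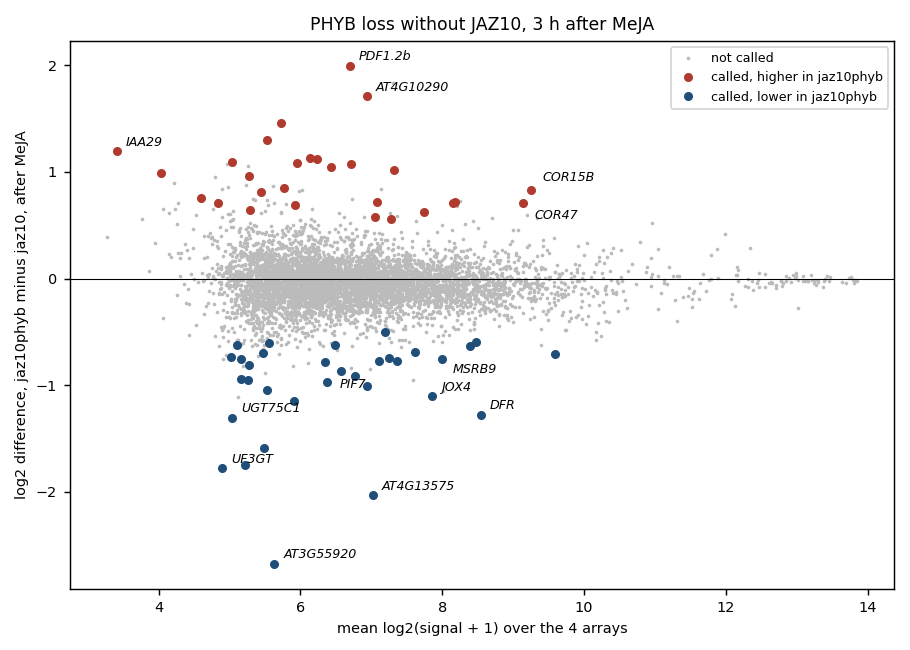
Difference between jaz10phyb and jaz10 after MeJA for each of the 5689 genes tested. The horizontal axis is the mean log2(signal + 1) over the 4 arrays, the vertical axis the log2 difference, and coloured points are the 28 genes called higher and 33 called lower. The largest fall, of AT3G55920, reached -2.67 and the largest rise, of PDF1.2b, reached 2.00.

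The number of calls fell when a group was reduced to 1 array, which the fit then assumes to vary like the other groups. Leaving out jaz10 MeJA 1 or 2 gave 2 or 7 calls, and leaving out jaz10phyb MeJA 1 or 2 gave 30 or 5, of which 2, 7, 22 and 5 were among the 61. A fit to all 18 arrays as labelled, in which the discordant phyb arrays widen the shared spread, called 3 of the 61 (0.0527%, 0.0352% lower), which were AT3G55920, AT4G13575 and AT1G16850. The signs of all 61 were the same in every fit run, but most of these fits could not have turned them. With separate groups, leaving out 1 array cannot turn a sign, and a change of the other arrays fitted leaves the difference as it is.

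Genes of light signalling and shade response moved in both directions. PIF7, a transcription factor that drives elongation in shade and is itself restrained by phytochrome B, was lower in the double mutant. Its log2 signal was 6.70 and 7.03 in jaz10 MeJA and 5.97 and 5.82 in jaz10phyb MeJA. The groups did not overlap, and PIF7 fell by 0.97 on the log2 scale (SE 0.13, limma adjusted p = 0.0069). It was the one tested gene of 44 on the phytochrome and light signalling list. Mock-sprayed plants showed 7.19 and 7.13 in jaz10 and 6.41 and 6.38 in jaz10phyb, a difference of -0.76 ± 0.13 (limma adjusted p = 0.019), so the lower level was seen in mock as well.

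IAA29, an auxin-responsive repressor of auxin signalling and a standard reporter of shade, was higher without phytochrome B. The jaz10 MeJA arrays gave 2.78 and 2.84 and the jaz10phyb MeJA arrays 4.13 and 3.89. The groups were separate, with a rise of 1.2 ± 0.20 (limma adjusted p = 0.021), but all 4 values lay below the signal minimum. The difference was 0.50 with a pseudocount of 16, and signal over background was not tested, so its size is uncertain. In mock-sprayed plants IAA29 was likewise higher, by 1.49 ± 0.20 (limma adjusted p = 0.0086), with 3.19 and 3.3 in jaz10 and 4.75 and 4.73 in jaz10phyb, all again below the minimum. Arrays of Col or phyb alone therefore brought IAA29 past the signal filter.

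HAT2, an auxin- and shade-induced homeodomain protein, had values of 5.23 and 5.32 in jaz10 MeJA and 6.04 and 5.93 in jaz10phyb MeJA. Its difference of 0.71 ± 0.17 did not pass after MeJA (limma adjusted p = 0.081), although the arrays were separate. In mock-sprayed plants it did pass, at 0.88 ± 0.17 (limma adjusted p = 0.039). The third tested member of the 49 genes of the shade and auxin list, the brassinosteroid-linked BIM1, differed by -0.32 ± 0.12 and was not called (limma adjusted p = 0.28). The median of these 3 was 0.71, against -0.04 over all genes tested. This median is a description only, as IAA29 lay below the signal minimum in both genotypes and HAT2 did in jaz10 MeJA.

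**Figure D2:**
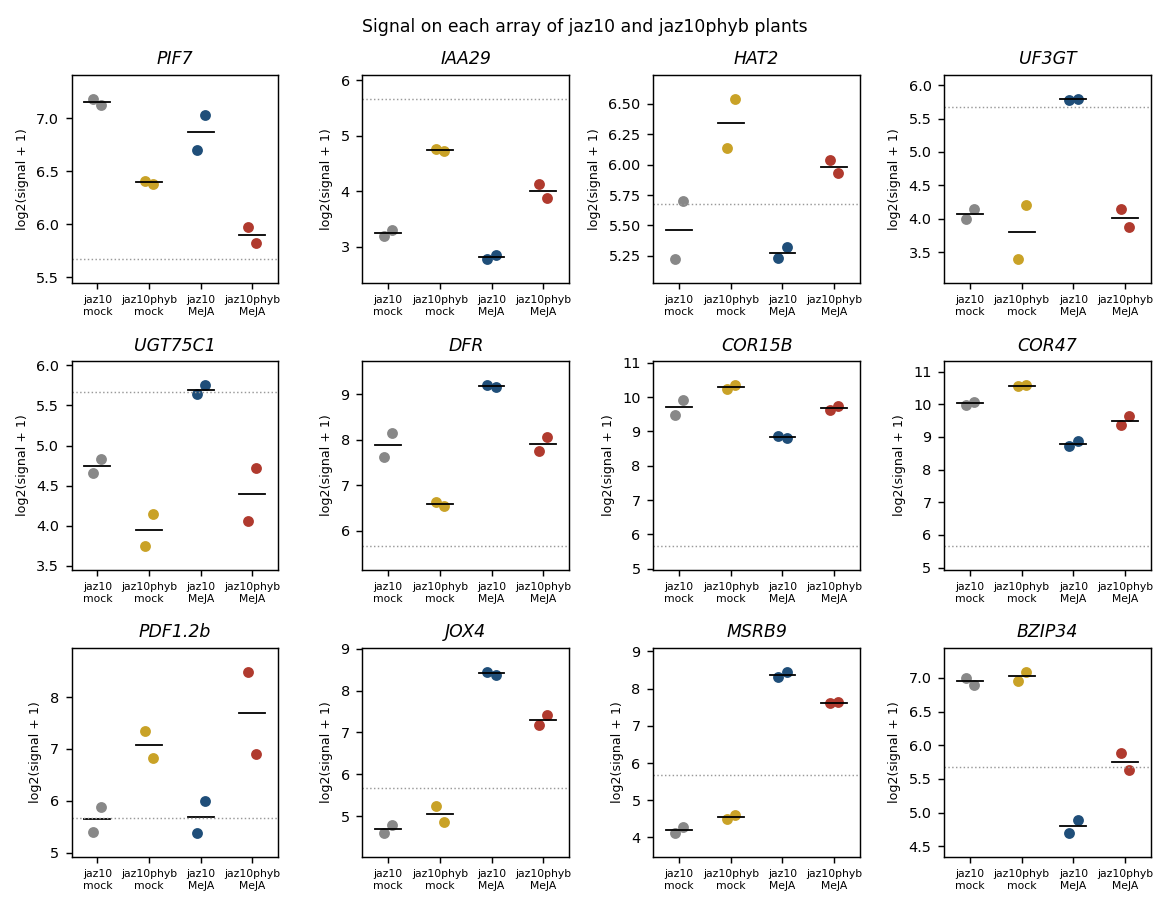
Log2(signal + 1) of 12 genes on each array of jaz10 and jaz10phyb plants, mock-sprayed or 3 h after MeJA. Points are arrays, black bars are means of 2, and the dotted line is the signal minimum of 5.67. HAT2 was not called after MeJA. PIF7, IAA29, HAT2 and DFR show a genotype gap in both treatments, while UF3GT, JOX4, MSRB9 and BZIP34 show their larger gap after MeJA.

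Of 5 tested anthocyanin genes 3 were called lower in the double mutant, against 0.58% of all genes, and none was called higher. Anthocyanins are the red and purple pigments that leaves build through the flavonoid pathway, and jasmonate is a known inducer of their late enzymes. The 5 come from a list of 31. DFR, the reductase that opens the anthocyanin branch, had values of 9.20 and 9.17 in jaz10 MeJA and 7.76 and 8.06 in jaz10phyb MeJA. The arrays were separate by more than 1 log2 unit, and DFR fell by 1.28 on the log2 scale (SE 0.20, a 2.42-fold lower level, limma adjusted p = 0.017).

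UF3GT, which adds a sugar to the anthocyanin already glucosylated, was 5.78 and 5.80 in jaz10 MeJA and 4.15 and 3.87 in jaz10phyb MeJA. The double mutant arrays were both far below those of jaz10, with a fall of 1.78 (SE 0.21, 3.43-fold, limma adjusted p = 0.0045). With a pseudocount of 16 the difference was -1.17. UGT75C1 (AT4G14090), an anthocyanin glucosyltransferase, was 5.64 and 5.75 against 4.06 and 4.72, again with separate groups, and fell by 1.3 (SE 0.22, limma adjusted p = 0.021). In the double mutant both transferases lay below the signal minimum, so the sizes of their falls are less certain than that of DFR. Of the arrays compared after MeJA, jaz10 arrays alone reached that minimum for both transferases. Their entry through the filter may therefore depend on the group where they are high, and the share of the list called lower is a description only.

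The other members were not called but lay on the same side. AT5MAT, which adds a malonyl group to anthocyanins, was 6.52 and 6.48 against 5.42 and 5.99, a difference of -0.79 ± 0.24 (limma adjusted p = 0.16). CHIL, a helper of flavonoid synthesis related to chalcone isomerase, was 5.74 and 6.20 against 5.16 and 5.59, a difference of -0.60 ± 0.19 (limma adjusted p = 0.20). The median over the 5 members was -1.28.

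In mock-sprayed plants all 5 also lay below 0, against 53.1% of all genes, with a median of -0.79, and 1 was called. That gene was DFR, which fell by 1.31 (SE 0.20, limma adjusted p = 0.014), with 7.63 and 8.16 in jaz10 and 6.63 and 6.54 in jaz10phyb. UF3GT was at 3.99 and 4.14 in mock jaz10 and at 3.40 and 4.21 in mock jaz10phyb, which overlap, and its difference was -0.26 ± 0.21 (limma adjusted p = 0.72). AT5MAT differed by -1.07 ± 0.24 in mock (limma adjusted p = 0.081), UGT75C1 by -0.79 ± 0.22 (limma adjusted p = 0.17) and CHIL by -0.01. Both genotypes thus lay below the signal minimum for UF3GT in mock, and jaz10 alone lay above it after MeJA. The change of the UF3GT difference with treatment, -1.52 ± 0.29, had an unadjusted p of 0.00025 and an adjusted p of 0.24 in limma, so it did not pass across all genes.

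Of 5 tested cold and dehydration genes 2 were called higher in the double mutant, against 0.492% of all genes, and none was called lower. These genes encode small hydrophilic proteins that protect membranes and proteins during freezing and drying, and cold, drought and abscisic acid induce them. The list holds 50 genes. All 5 tested had separate groups with the double mutant higher, against 16.3% of all genes, for a median of 0.65. COR15B, a chloroplast protein of cold acclimation, was 8.87 and 8.81 in jaz10 MeJA and 9.62 and 9.73 in jaz10phyb MeJA. The arrays agreed closely within each group, and COR15B rose by 0.83 ± 0.14 (limma adjusted p = 0.021). The dehydrin COR47 was 8.72 and 8.86 against 9.36 and 9.65 and rose by 0.71 ± 0.12 (limma adjusted p = 0.021).

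The remaining 3 members were not called. KIN2 was 10.67 and 10.71 against 11.32 and 11.11, a difference of 0.52 ± 0.12 (limma adjusted p = 0.081). COR15A, the close neighbour and paralogue of COR15B whose probes may share transcripts with it, differed by 0.42 ± 0.11 (limma adjusted p = 0.12). The dehydrin LTI30 differed by 0.65 ± 0.21 (limma adjusted p = 0.20), with all 4 arrays below the signal minimum. In mock-sprayed plants the same 5 had a median of 0.54, and LTI30 was the one called there, with a rise of 1.15 ± 0.21 (limma adjusted p = 0.031). COR47 was lower after MeJA than in mock in both genotypes, from 9.99 and 10.06 to the values above in jaz10 and from 10.57 and 10.58 in jaz10phyb, so the genotype gap was seen at a lower level after the hormone.

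Jasmonate defence genes are known to fall into 2 branches, one driven by MYC factors and one by ERF factors together with ethylene. Of the ERF branch 3 of 18 genes were tested, and the antifungal defensin PDF1.2b rose in the double mutant. It was 5.39 and 6.0 in jaz10 MeJA and 8.48 and 6.91 in jaz10phyb MeJA. The groups were separate but the double mutant arrays lay far apart, and PDF1.2b rose by 2.00 ± 0.40 (3.99-fold, limma adjusted p = 0.042). Without jaz10phyb MeJA 1 its difference was 1.21, and it was called in 3 of 12 fits that left out 1 array. PDF1.2, nearly identical in sequence and so perhaps not told apart from PDF1.2b by the probes, was 6.36 and 6.42 against 8.85 and 7.60, a difference of 1.83 ± 0.44 (limma adjusted p = 0.083). The thionin THI2.2 differed by 0.49 ± 0.16 (limma adjusted p = 0.21), which left 1 of 3 tested members called, against 0.492% of all genes called higher.

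PDF1.2b and PDF1.2 were also high in mock-sprayed jaz10phyb. PDF1.2b was 5.40 and 5.89 in mock jaz10 and 7.34 and 6.83 in mock jaz10phyb, a difference of 1.44 ± 0.40 (limma adjusted p = 0.17). Between MeJA and mock jaz10 plants PDF1.2b differed by 0.05 and PDF1.2 by 0.10. Of the MYC branch 4 genes were tested and none was called, with a median of -0.24. They were NAI1 (-0.53 ± 0.20), which controls the endoplasmic reticulum bodies of Brassicaceae, the body protein NAI2 (-0.27), the body glucosidase PYK10 (-0.20) and the lectin JAL23 (0.06).

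Of 3 tested jasmonate breakdown genes 1 was called lower in the double mutant after MeJA, against 0.58% of all genes, and none was called in mock. The jasmonate oxidases hydroxylate the hormone to an inactive form, and jasmonate itself induces them. JOX4 (AT2G38240) was 8.44 and 8.38 in jaz10 MeJA and 7.18 and 7.43 in jaz10phyb MeJA. The groups were separate, and JOX4 fell by 1.1 (SE 0.14, 2.15-fold, limma adjusted p = 0.006). In mock-sprayed plants it was 4.61 and 4.78 in jaz10 and 5.25 and 4.86 in jaz10phyb, so there the double mutant was the higher, by 0.36 ± 0.14, without passing the test (limma adjusted p = 0.35).

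The change of the JOX4 difference with treatment was -1.46 ± 0.19, the smallest p of all 5689 genes in that contrast and just outside the threshold (limma adjusted p = 0.055). It passed in 5 of the other settings that kept all arrays, with adjusted p between 0.008 and 0.042. JOX3 had the same order, at 8.29 and 8.13 against 7.75 and 7.79 after MeJA and at 4.54 and 4.83 against 5.56 and 5.14 in mock. Its difference after MeJA was -0.44 ± 0.15 and was not called (limma adjusted p = 0.21). JOX2 (AT5G05600) differed by -0.36 ± 0.13 after MeJA (limma adjusted p = 0.27) and by 0.39 ± 0.13 in mock. All 3 tested members thus lay below 0 after MeJA and above 0 in mock, as did 22.4% of all genes, and 1 of 3 was called.

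Jasmonate synthesis and signalling were thinly covered. Of synthesis genes 3 of 23 were tested and none was called: the methyltransferase JMT, which makes MeJA, differed by -0.21 ± 0.29, the coenzyme A ligase OPCL1 by -0.40 ± 0.15, and the beta-oxidation enzyme AIM1 by 0.04. Of signalling genes 2 of 24 were tested, MYC4 (0.19) and MYC3 (-0.04), and neither was called. The salicylate methyltransferase BSMT1 differed by 0.43 ± 0.16 (limma adjusted p = 0.29).

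**Figure D3:**
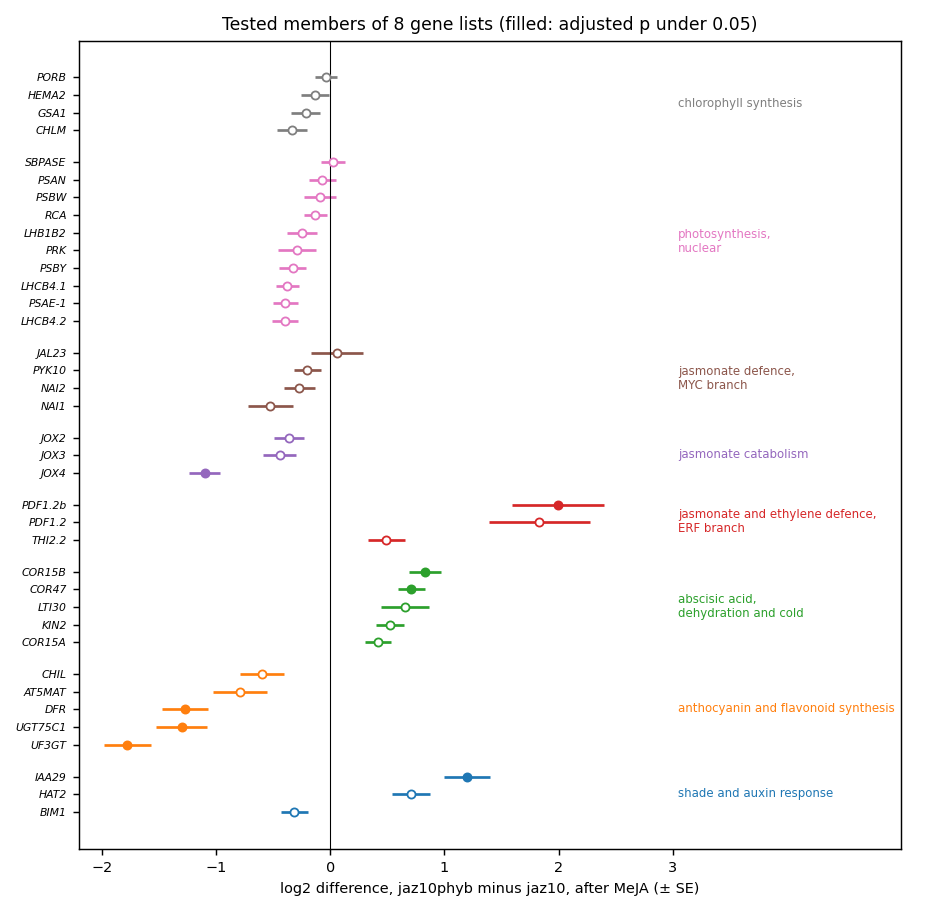
Log2 difference between jaz10phyb and jaz10 after MeJA for the tested members of 8 gene lists. Points are genes, bars are the limma SE (n = 2 arrays per group), and filled points have an adjusted p under 0.05. The filled anthocyanin and jasmonate catabolism points lie left of 0, and the filled shade, cold and ERF-branch points lie right of 0.

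Photosynthesis genes lay mostly below 0 without a call. Of 57 nuclear genes for photosystem and carbon fixation proteins 10 were tested, and none was called. Of the 10, 9 lay below 0, against 58.9% of all genes, with a median of -0.27 against -0.04 over all genes. The antenna protein gene LHCB4.2 was 7.32 and 7.45 in jaz10 MeJA and 7.07 and 6.91 in jaz10phyb MeJA, a difference of -0.40 ± 0.12 (limma adjusted p = 0.15). PSAE-1, a photosystem I subunit, differed by -0.39 ± 0.11 (limma adjusted p = 0.12). All 4 tested genes of chlorophyll synthesis lay below 0, with none called and a median of -0.17. After quantile normalization 8 of 10 and 3 of 4 lay below 0. Mock-sprayed plants, without that normalization, also had 9 of 10 and 4 of 4 below 0, against 53.1% of all genes. The mock medians were -0.26 and -0.21, with none called, so the lower level was not particular to MeJA. In whole plants a lower level cannot be told apart from fewer cells of a type that expresses the gene.

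Genes of the plastid genome lay near 0. Of 63 tested none was called, the median was -0.02 and the lowest value was -0.27. Centring each array on its median turned that median to 0.01. Of the other lists, 11 sugar and starch genes (median -0.15), 8 genes of cell wall growth (0.04) and 10 TBL wall acetylation genes (0.00) held no called gene.

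Among called genes with a symbol outside the lists above, 3 fell. MSRB9, a methionine sulfoxide reductase that repairs oxidised protein, was 8.30 and 8.44 in jaz10 MeJA and 7.61 and 7.63 in jaz10phyb MeJA, and fell by 0.75 (SE 0.15, limma adjusted p = 0.038). In mock its order was the opposite, at 4.13 and 4.28 against 4.48 and 4.60, a difference of 0.34 ± 0.15 that was not called. NGA3, a B3-domain regulator of lateral organ growth, fell by 0.74 (SE 0.15, limma adjusted p = 0.042), with both groups below the signal minimum. It passed the signal filter on Col MeJA 1 alone, at 5.77. NAXT1, a nitrate efflux transporter, fell by 0.62 (SE 0.12, limma adjusted p = 0.031) and also in mock, by 0.70 (limma adjusted p = 0.019).

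A further 2 genes rose. BZIP34, a transcription factor known for pollen development, was 4.70 and 4.89 in jaz10 MeJA and 5.88 and 5.63 in jaz10phyb MeJA, a rise of 0.96 ± 0.20 (limma adjusted p = 0.042). Its mock values of 7.0 and 6.90 in jaz10 and 6.96 and 7.08 in jaz10phyb overlapped, so the gap was seen at the lower level after MeJA. The subtilase ATSBT5.2 rose by 0.69 ± 0.13 (limma adjusted p = 0.031), and by 0.90 ± 0.13 in mock (limma adjusted p = 0.011).

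The other 49 called genes include JOX4 and UGT75C1, and the reference lists them by locus alone. Those with the largest differences, chosen after their values were seen, are given without a role. AT3G55920 was 6.98 and 6.96 in jaz10 MeJA and 4.23 and 4.37 in jaz10phyb MeJA, and fell by 2.67 (SE 0.19, 6.37-fold, limma adjusted p = 7e-05). Its mock difference was -3.22 ± 0.19. AT4G13575 was 8.09 and 7.99 against 6.44 and 5.57 and fell by 2.03 (SE 0.22), with -2.03 in mock. The change with treatment was 0.54 ± 0.26 for AT3G55920 and 0.00 ± 0.31 for AT4G13575, and neither passed (limma adjusted p = 0.95 and 1). Both loci were called after MeJA in all 12 other settings fitted at the adjusted threshold, not counting the fits that left out each array in turn. In those fits the difference ran from -2.739 to -2.605 for AT3G55920 and from -2.465 to -1.597 for AT4G13575.

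AT1G03495 fell by 1.75 (SE 0.24) and AT1G15125 by 1.59 (SE 0.22), with mock differences of -0.77 and -0.51 that were not called. Among the rises, AT4G10290 went from 5.87 and 6.29 in jaz10 MeJA to 7.69 and 7.89 in jaz10phyb MeJA, by 1.71 ± 0.20 (limma adjusted p = 0.0047). AT1G70640 rose by 1.46 ± 0.28, AT1G16850 by 1.3 ± 0.18 and AT1G76960 by 1.13 ± 0.20. Of these AT1G16850 was also called in mock, at 1.56 ± 0.18 (limma adjusted p = 0.0034). The neighbouring loci AT4G22485 and AT4G22490 fell by 0.92 and 0.86, and their probes may share transcripts.

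The mock-sprayed pair asked whether these differences were also present without the hormone. In mock, 44 genes were called (0.773% of 5689), 27 higher (0.475%) and 17 lower (0.299%). The comparisons share no array, and 19 genes were called in both, 7 higher and 12 lower each time, which is 31.1% of the calls after MeJA and 43.2% of those in mock. Of the 61 genes called after MeJA, 56 had the same sign in mock, against 60.9% of all genes. Their differences were smaller in mock: the 28 higher genes had a median of 0.90 after MeJA and 0.51 in mock, and the 33 lower genes -0.81 and -0.57. Because the 61 were chosen on their values after MeJA, that contrast of medians is a description only. Leaving out jaz10 Control 1, jaz10phyb Control 1 or jaz10phyb Control 2 left 7, 9 or 8 mock calls, and leaving out jaz10 Control 2 gave 72.

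Genes called in mock alone show the reverse case. GH9B8, an endoglucanase of the cell wall, was 6.80 and 7.03 in mock jaz10 and 7.86 and 7.83 in mock jaz10phyb, a rise of 0.93 ± 0.12 (limma adjusted p = 0.0086). After MeJA its difference was 0.29 ± 0.12 and was not called. PHOS34, a phosphoprotein of the universal stress family, fell by 0.80 in mock (SE 0.13, limma adjusted p = 0.019) and differed by 0.00 after MeJA, where its arrays overlapped. TBL37 was higher in mock by 0.72 ± 0.14 (limma adjusted p = 0.036) and differed by -0.34 ± 0.14 after MeJA.

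**Figure D4:**
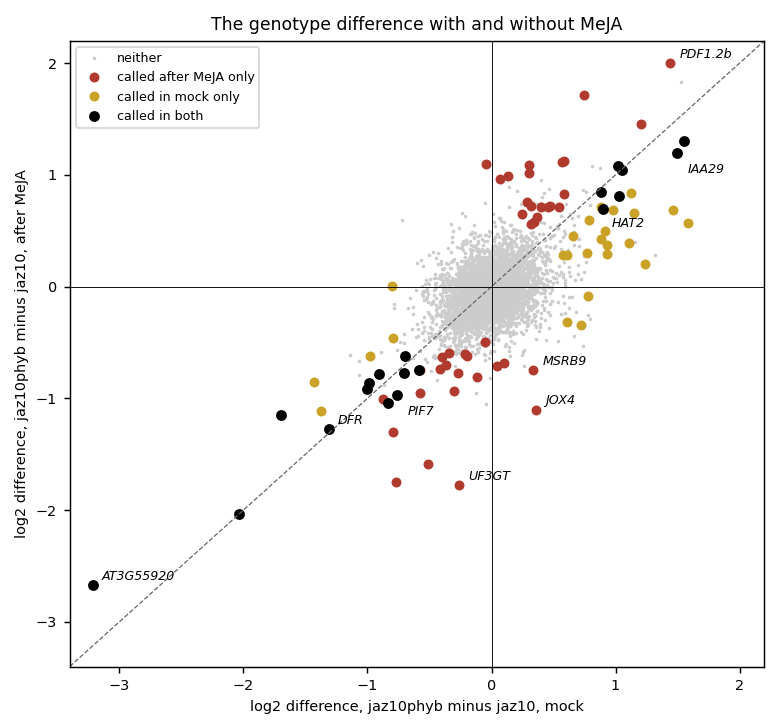
Log2 difference between jaz10phyb and jaz10 after MeJA (vertical axis) against the same difference in mock-sprayed plants (horizontal axis) for 5689 genes. Black points are the 19 genes called in both, red and yellow points those called in one, and the dashed line marks equal differences. UF3GT, JOX4 and MSRB9 lie far below the line, while AT3G55920, DFR, PIF7 and IAA29 lie near it.

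A direct test of the change with treatment called no gene in limma (0%, with 291 genes at an unadjusted p under 0.05). The smallest p-values were those of JOX4 (above), TBL37 (-1.06 ± 0.19), JOX3 (-1.11 ± 0.21), UF3GT and MSRB9 (-1.09 ± 0.21), with limma adjusted p of 0.24 for these last 4.

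Genes were then grouped by their response to MeJA in Col, on arrays that do not enter the differences between jaz10phyb and jaz10. The Col arrays do enter the shared spread of the 12-array fit, so the calls are not independent of this grouping. MeJA raised 247 genes and lowered 129 at least 2-fold with separate Col arrays. The 247 raised genes had a median response of 1.5 in jaz10 and 1.23 in jaz10phyb, and the 129 lowered genes -1.02 and -0.80. Their medians in Col, 1.54 and -1.20, are set by the choice of genes.

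At the genotype level, the raised genes had a median difference of -0.17 after MeJA, with 174 of 247 (70.5%) below 0, against 58.9% of all genes. In mock their median was 0.14, with 175 above 0. The lowered genes mirrored this, with a median of 0.12 after MeJA (87 of 129 above 0) and -0.12 in mock. Both held, above 0 in mock and below 0 after MeJA, for 105 of the 247 raised genes (42.5%), against 22.4% of all genes. The change from mock to MeJA was below 0 for 221 of 247 raised genes (median -0.30) and above 0 for 111 of 129 lowered genes (median 0.29), and over all genes its median was -0.03, with 56.0% below 0. Without jaz10 Control 1 it was below 0 for 191 of the 247 (median -0.18).

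**Figure D5:**
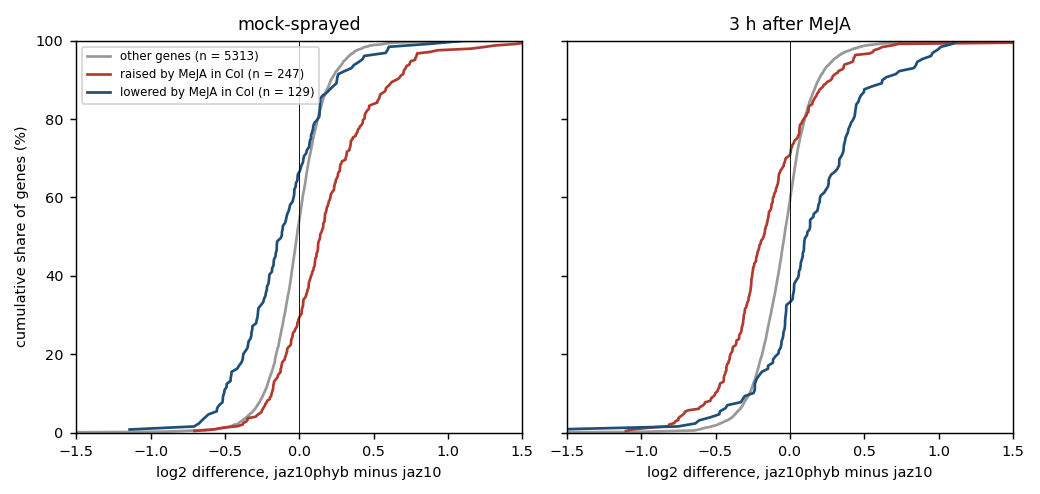
Cumulative share of genes (%) by log2 difference between jaz10phyb and jaz10, in mock-sprayed plants (left) and 3 h after MeJA (right), for genes raised by MeJA in Col (red, 247), lowered (blue, 129) and the other genes (grey). The red curve lies right of the grey one in mock and left of it after MeJA over most of its length, and the blue curve does the opposite.

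Few of these genes passed the test singly. After MeJA 10 raised genes were lower (4.05%, against 0.58% of all genes) and 2 higher in jaz10phyb, and 7 lowered genes were higher (5.43%, against 0.492%) and 1 lower. These shares are a description only. The filter took a signal on any array, so genes could enter through Col arrays alone, as NGA3 did, and how many did was not counted. The 10 included JOX4, MSRB9 and NGA3, and the 7 included BZIP34. The exceptions were AT4G10290 and AT5G50915, raised in Col and higher in jaz10phyb, and AT1G15125, lowered in Col and lower still in jaz10phyb (all 3 chosen after their values were seen). After MeJA the median of the raised genes was -0.12 without jaz10phyb MeJA 2, and that of the lowered genes was 0.02 without jaz10phyb MeJA 1, 0.19 without jaz10 MeJA 2 and 0.18 without jaz10phyb MeJA 2. In mock the median of the raised genes was 0.02 without jaz10 Control 1, 0.27 without jaz10 Control 2 and 0.25 without jaz10phyb Control 2. That of the lowered genes in mock was -0.06 without jaz10 Control 1 or jaz10phyb Control 2, -0.22 without jaz10 Control 2 and -0.20 without jaz10phyb Control 1. The signs of the group medians after MeJA were the same with quantile normalization, array centring, a pseudocount of 16 and each of the 4 arrays left out.

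The last comparison asked whether PHYB loss had the same effect with JAZ10 present, from phyb against Col after MeJA. With all 18 arrays 55 genes were called there (0.967%), 13 higher (0.229%) and 42 lower (0.738%), and without the discordant arrays 160 (2.81%), 52 higher (0.914%) and 108 lower (1.9%). The 61 genes called without JAZ10 come from the 12-array fit, and the calls of that contrast were 3 with 18 arrays and 45 with 16. Of the 61, 55 had the same sign with JAZ10 in either fit, against 59.6% and 61.6% of all genes. Of the 61, 11 were also called with JAZ10 in the 18-array fit, which is 18% of the 61 and 20.0% of the 55. In the 16-array fit 21 were, which is 34.4% of the 61 and 13.1% of the 160.

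Named genes are given side by side. AT3G55920 differed by -2.67 without JAZ10 and by -3.02 ± 0.22 with it, DFR by -1.28 and -1.80 ± 0.30, UGT75C1 by -1.3 and -1.36 ± 0.21, and PDF1.2b by 2.00 and 2.50 ± 0.44, all called with JAZ10 in the 18-array limma fit (adjusted p up to 0.02). With 16 arrays these values with JAZ10 were -2.92 ± 0.20, -1.55 ± 0.21, -1.29 ± 0.22 and 2.83 ± 0.43, all called (limma adjusted p up to 0.00794). PIF7 differed by -0.97 without JAZ10 and by -0.42 ± 0.18 with it (16 arrays, -0.56 ± 0.15), not called in the second (limma adjusted p = 0.31 and 0.071). JOX4 differed by -1.1 without JAZ10 and with it by -2.19 ± 0.63 (18 arrays, limma adjusted p = 0.13) or -1.52 ± 0.19 (16 arrays, limma adjusted p = 0.0013).

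COR15B and COR47 rose by 0.83 and 0.71 without JAZ10, and with JAZ10 they differed by 0.23 ± 0.16 and 0.18 ± 0.23, or 0.08 ± 0.14 and -0.03 ± 0.12 with 16 arrays. The gap between backgrounds, 0.75 ± 0.20 and 0.74 ± 0.17 with 16 arrays, did not pass (limma adjusted p = 0.31 and 0.20). With 18 arrays it was 0.60 ± 0.23 and 0.53 ± 0.34 (limma adjusted p = 0.85 and 0.87).

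Tested across all genes, the effect of PHYB loss after MeJA differed between the backgrounds for no gene with 18 arrays (limma, 0%, with 322 at an unadjusted p under 0.05). With 16 arrays 1 gene was called, AT3G24420 (0.0176%, with 417 at an unadjusted p under 0.05). It was 6.87 and 6.93 in jaz10 MeJA and 6.52 and 6.84 in jaz10phyb MeJA, a difference of -0.22 ± 0.12 that was not called. With JAZ10 present it differed by -1.60 ± 0.11, so the gap between backgrounds was 1.39 ± 0.16 (limma adjusted p = 0.0053). With all 18 arrays that gap was 1.25 ± 0.20 and did not pass (limma adjusted p = 0.12).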

How the data were processed

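Per the submitters' processing notes, the authors processed the arrays with Affymetrix Expression Console, and the deposited values are signal intensities on a linear scale, read as linear from the values. How probes were summarised, with which software version and on which build is not given in the sources used here. Array medians ran from 14.87 to 17.5, and 2 or 3 arrays a group limit the precision.

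Probe sets paired with 1 gene in the platform annotation and with a signal of at least 50 on any array were kept, the one with the highest mean for each gene. Symbols come from a TAIR10.1 table used for names alone, which matched 16715 of 16722 single-gene probe sets and gave 854 of the 5689 genes a symbol. UGT75C1, JOX2 and JOX4 are listed there by locus alone, and their names are those in general use. The symbol CHI of that table is a chitinase and was taken off the anthocyanin list after the data were seen.

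Log2(signal + 1) values of 12 arrays (Col, jaz10 and jaz10phyb, both treatments) were fitted with a mean for each group in limma 3.58.1 (R 4.3.3), which left 6 residual degrees of freedom. The comparison with JAZ10 used all 18 arrays, or 16. Calls are at a Benjamini-Hochberg adjusted p under 0.05 over 5689 genes. The fit was tested on simulated data for the comparison after MeJA, with 200 changed genes and independent noise. It recovered 92% of 100 genes changed by 1 and 100% of those changed by 2 on the log2 scale, with 12 false calls. The measured arrays gave 61 calls, fewer than the changed genes of the simulation, so these shares need not hold for them. Replicate numbers were not taken to pair the arrays: over the 15 pairs of groups, deviations of arrays of the same number had correlations of -0.0812 to 0.23 across genes (0.0495 for jaz10 MeJA with jaz10phyb MeJA).

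The genes, lists and arrays fitted were chosen with earlier results of these data known. Named genes were the called genes with a symbol and the largest changes (up to 12 each way after MeJA, 4 each way elsewhere), genes named in advance, and up to 6 members of a list. Exceptions are marked in the text. Alternatives changed the arrays fitted, the filter, the pseudocount, the eBayes settings, the scaling, the probe sets and the call rule, added a replicate block, and left out each array in turn. No set test was run, and promoter sequences were not analysed here.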

Additional observations from a re-analysis of the deposited data

Results flagged for a closer look

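AT3G24420 stood out because its effect of PHYB loss after MeJA differed between the JAZ10 backgrounds in a direct test, by 1.39 on the log2 scale (16 arrays, limma adjusted p = 0.0053). Its signal was lower in phyb than in Col and nearly level between jaz10phyb and jaz10. With all 18 arrays the difference of 1.25 did not pass (limma adjusted p = 0.12), and leaving out phyb MeJA 3 alone from that fit gave 1.39 and a call (limma adjusted p = 0.0086). Groups of 2 or 3 arrays are too small for a search for outlying samples.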

How the results depend on the processing

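The numbers of calls are given in the order after MeJA and mock (61 and 44 as reported), and for the change with treatment and the change with JAZ10 (0 each). They became 3 and 4 with all 18 arrays, 4 and 7 without a filter (16548 genes, a larger family that includes dim probe sets), and 120, 75 and 2 with a trended, robust eBayes step. An unadjusted p with a 2-fold minimum gave 28, 26, 14 and 23. The change with treatment had 1 call, JOX4, at a signal minimum of 100, a pseudocount of 16, quantile normalization or array centring, and the change with JAZ10 had 1 with 16 arrays. Leaving out 1 array gave 2 to 69, 7 to 72, 0 to 1 and 0 to 1. The count after MeJA alone was 42 with its 4 arrays. The counts after MeJA and in mock stayed within 1.5-fold with 16 or 8 arrays (45 and 48 after MeJA), a signal minimum of 100, a pseudocount of 16, other scalings and all probe sets, the last with 61. The 16-array fit kept 44 of the 61 genes, quantile normalization 57 and centring 60. A replicate block gave 73 calls after MeJA, 57 of the 61 among them, 36 in mock and 0 for both changes, with no pairing found. Genes with a change of at least 4-fold in Col were 74 raised (median -0.30) and 8 lowered (0.41). With settings added after the data were seen, the raised median was -0.12 with quantile normalization, and leaving out 1 array gave -0.22 to -0.12 for raised and 0.0211 to 0.192 for lowered genes. The causes were not tested. No called gene changed sign, which separate groups fix in advance for the fits that left out 1 array. Signal over background was not tested, and 2 arrays a group limit all of the above.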

Other observations

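Chromosome 1 held a larger share of the higher than of the lower calls. Of the 28 genes higher in jaz10phyb after MeJA, 15 lie on chromosome 1 (53.6%), as do 6 of the 33 lower genes (18%) and 25.4% of the genes tested. In mock, on other arrays, 12 of 27 higher genes (44.4%) and 2 of 17 lower genes (11.8%) lie there. In phyb against Col after MeJA, 14 of 52 higher genes did with 16 arrays (26.9%), and 3 of 13 with 18 arrays (23.1%). Chromosome 3, with 20.1% of the genes tested, held 8 of the 33 lower genes after MeJA (24.2%) and 7 of the 17 in mock (41.2%). In phyb against Col it held 34 of 108 lower genes with 16 arrays (31.5%) and 16 of 42 with 18 arrays (38.1%). PHYB and JAZ10 lie on neither chromosome. Both patterns were noticed in the results, no test was run on them, and their causes were not tested.

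Of 16 tested genes of the UGT glycosyltransferase family, to which UGT75C1 and UF3GT belong by function but not by symbol in the reference, none was called and the median was 0.01. Of 7 expansin genes, which loosen cell walls in growth, none was called after MeJA, and 5 lay above 0 (median 0.23), against 41.1% of all genes. EXPA8, the highest of them, differed by 0.62. Both tested clock genes, GI and CCL, lay above 0 (0.20 and 0.33) and were not called.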
